A study of Mus musculus with 71 samples.

Results

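Oog1, Oog2, Oog3, Oog4, C87977, C87499 and Pramef12 are mouse oocyte genes of the oogenesin and PRAME family. They were taken from the deposited expression table by symbol, and all 7 are present among its 15140 genes. The list was selected on its TPM levels in this table, so the levels, changes and calls of the 7 genes are given as a description, without p-values. PRAME proteins carry leucine-rich repeats, and in the mouse many copies of their genes lie in clusters. The oogenesins are known as transcripts of growing oocytes that are carried into the early embryo. Pramef12 is also known from the male germ line, where it acts in spermatogonial stem cells.

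RNA of 68 libraries in 33 groups was measured by polyA RNA sequencing and is given in TPM, a share of all transcripts that is corrected for transcript length and does not depend on how deeply a library was sequenced. The in vitro oocytes (C57BL/6 X 129, carrying the reporters Blimp1-Venus and Stella-CFP) came from embryonic stem cells by way of primordial germ cell-like cells. Aggregates of these cells with somatic cells of E12.5 female gonads formed reconstituted ovaries, from which SC+ oocytes were sorted on day 11 or day 13 of culture. Wild type was taken on both days, knockouts of Figla, Lhx8, Stat3 and Sub1 on day 11, and knockouts of Ccnk, Dynll1, Ell3, Foxr1, Hes6, Kdm1b, Mef2b, Nobox, Noto, Sfr1, Sohlh1, Tbpl2, Tcf25, Thap7 and Ybx3 on day 13. Directly induced oocyte-like cells (DIOLs; C57BL/6 X 129, genotype MGA8) were stem cell aggregates kept in S10 medium with SCF, Shield1 and Y-27632. Shield1 stabilises proteins that carry a destabilising domain. The labels name neither the proteins introduced in MGA8 nor what the S of DIOLs.S stands for. DIOLs.S were taken on days 1, 3, 5, 7 and 14, and DIOLs on days 5, 10, 15 and 25. Matured MII DIOLs, in metaphase of the second meiotic division, had been aggregated with somatic cells of E12.5 female gonads and Shield1, grown as isolated follicles and matured in culture. Germinal vesicle (GV) oocytes, arrested before the meiotic divisions, came from animals of the Blimp1-Venus and Stella-CFP genotype and are labelled competent or incompetent. The column names of the deposited table mark the incompetent libraries with 2 and the competent ones with 3, each followed by a w, read here as weeks of age, so that these groups may differ in age as well as in competence. Each group had 2 libraries, and each GV group had 3. The labels do not say whether libraries of a group came from separate cultures or animals, so errors and p-values measure only the spread between libraries. The labels also do not say whether a knockout line is a single clone.

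In the annotation GENCODE M21 (GRCm38) 6 of the 7 genes lie on chromosome 4. Oog4 (chr4:143437164-143450324), Oog3 (chr4:144157557-144162663) and C87977 (chr4:144206775-144213318) are on the minus strand, and Oog2 (chr4:144190719-144196934) is on the plus strand between Oog3 and C87977. Pramef12 (chr4:144391674-144408464, minus strand) lies farther along in the same stretch, C87499 (chr4:88627320-88634411, minus strand) lies apart, and Oog1 (chr12:87602688-87608850, plus strand) is on chromosome 12. Another transcript, Pramef12os, runs antisense within Pramef12. The libraries were directional per the labels, but whether counting used the strand is not given in the sources used here, so reads of these overlapping genes may not be told apart. RefSeq lists C87977, C87499 and Pramef12 under the newer names Pramel29, Pramel32 and Pramel13.

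The coding sequences had between 463 codons (Pramef12) and 502 codons (Oog4). Oog1 and C87977, on different chromosomes, had 96.2% identical bases over their coding sequences. The other 14 pairs among Oog1 to Oog4, C87977 and C87499, called here the 6 Oog-type genes, had 74.1 to 81.1%. Pramef12 stood farthest, with 55.4 to 60.0% identity to each of the 6. Reads of near-identical copies can be split or lost in counting, so the share of each transcript's stretches of 50 bases that also occur in another annotated gene was computed. It was 89.0% for Oog1 (85.8% in Gm2042 and 17.1% in C87977), 33.4% for Oog2 (30.1% in Gm13084), 24.0% for C87977 and 19.7% for Oog3 (18.9% in the pseudogene Gm4350). It was 0.71% for Oog4, 0.044% for C87499 and 0 for Pramef12. A share of at least 20% was found for 3 of the 7 genes and for 6.69% of 14555 genes of the table. Single levels of Oog1, Oog2, C87977 and Oog3 are therefore uncertain. Those of Oog4, C87499 and Pramef12 rest on sequence that is almost all their own on the transcript strand. Antisense overlap, as of Pramef12 with Pramef12os, was not part of this search.

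The 250 bases before the RefSeq start sites (GRCm38.p6) are shown for 4 of the genes, because in several groups of in vitro oocytes the 6 Oog-type genes were listed at 0 while Pramef12 was high. The windows of Oog3, C87977 and C87499 overlap their own exons in GENCODE and are not printed, but were searched. They are given 5′ to 3′ on the gene's strand, for Oog1 chr12:87602415-87602664, for Oog2 chr4:144190467-144190716, for Oog4 chr4:143450325-143450574 and for Pramef12 chr4:144408465-144408714. Capitals mark matches on either strand to CANNTG (the E-box, an element that bHLH factors such as Sohlh1 and Figla are known to bind), to TAATTG or TAATTA (the element known for the homeobox factor Nobox), or to TATAAA.
Oog1: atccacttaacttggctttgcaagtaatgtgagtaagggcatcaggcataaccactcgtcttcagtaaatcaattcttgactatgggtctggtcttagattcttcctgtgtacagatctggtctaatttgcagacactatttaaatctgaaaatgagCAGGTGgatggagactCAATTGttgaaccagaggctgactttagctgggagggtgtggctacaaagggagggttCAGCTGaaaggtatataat
Oog2: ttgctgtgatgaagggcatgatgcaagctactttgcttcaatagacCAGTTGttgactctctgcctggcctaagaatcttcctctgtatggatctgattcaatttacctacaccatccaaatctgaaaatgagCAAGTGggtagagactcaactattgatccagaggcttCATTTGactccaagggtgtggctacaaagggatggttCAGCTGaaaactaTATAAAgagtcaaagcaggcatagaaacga
Oog4: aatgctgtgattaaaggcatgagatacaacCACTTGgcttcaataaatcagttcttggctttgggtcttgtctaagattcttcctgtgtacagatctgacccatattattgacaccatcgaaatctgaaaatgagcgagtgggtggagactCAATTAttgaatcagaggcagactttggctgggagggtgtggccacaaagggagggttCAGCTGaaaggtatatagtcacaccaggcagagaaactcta
Pramef12: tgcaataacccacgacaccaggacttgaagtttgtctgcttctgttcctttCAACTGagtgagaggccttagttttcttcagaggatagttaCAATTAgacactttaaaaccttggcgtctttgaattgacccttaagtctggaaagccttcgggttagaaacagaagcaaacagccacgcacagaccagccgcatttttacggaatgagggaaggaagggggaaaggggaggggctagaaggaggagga
CAGCTG, itself one of the E-box forms, lay 19 bases before the start of Oog1, 43 before Oog2, 41 before Oog4, 42 before Oog3, 83 before C87977 and 43 before C87499, and had no match in the window of Pramef12. It occurred in 13.0% of 32851 RefSeq promoter windows of this length. This form of the E-box was picked out after its positions had been seen. An E-box of any form was present in all 7 windows and in 66.2% of all promoter windows. TAATTG or TAATTA was present in 5 of the 7 (Oog3, Oog4, C87977, C87499 and Pramef12) and in 11.3% of all. TATAAA was present 30 bases before Oog2 and 29 before Oog3, and in 12.4% of all. The Oog1 and C87977 windows were 93.5% identical, the other pairs of the 6 were 76.1 to 83.8% identical, and pairs with Pramef12 were 47.9 to 55.0% identical. These matches are a description of the letters and were not tied to binding.

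Between 8011 and 10596 genes had at least 1 TPM in a library. Of the 19 targeted genes 12 are in the table, and 11 of these were lower in both knockout libraries than in either wild-type library of the day. The exception was Ccnk, so the Ccnk group is named by its label throughout. The 4 knockouts of day 11 share their 2 wild-type libraries, and so do the 15 of day 13. The labelled cell type was checked with 15 oocyte markers, of which 11 are in the table. Their summed level was 10046 to 10269 TPM in wild-type oocytes of day 11 and 60042 to 61470 TPM on day 13, with none at 0. One Sohlh1 knockout library stood apart: macrophage markers (9 of 10 in the table) summed to 2158.85 TPM there and to 36.8 TPM in the other.

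In wild-type in vitro oocytes the 6 Oog-type genes appeared between day 11 and day 13, while Pramef12 was high on both days. All 6 were listed at 0 in both day 11 libraries. On day 13 Oog4 stood at 33.57 and 29.61 TPM, C87977 at 32.88 and 31.69 TPM, and C87499 at 19.86 and 24.68 TPM. Oog3 stood at 9.41 and 12.86 TPM, Oog1 at 6.70 and 7.45 TPM, and Oog2 at 5.93 and 2.67 TPM. Oog4 and C87977 overlapped and led the 6, and C87499, Oog3, Oog1 and Oog2 followed in this order without overlap between neighbours. Summed, the 6 reached 108.35 and 108.96 TPM. Pramef12 stood at 354.81 and 281.71 TPM on day 11 and at 380.98 and 424.64 TPM on day 13, so that its libraries of the 2 days did not overlap. Markers of other cells differed between the same libraries. Granulosa markers (9 of 11 in the table) summed to 782 and 801 TPM on day 11 and to 28.1 and 25.3 TPM on day 13, and stroma markers (6 of 8) to 76.6 and 103 TPM and to 17.5 and 10.7 TPM. Their part in the day 11 to 13 differences was not tested.

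Changes were estimated with limma on log2(TPM + 1), which understates changes of low genes, and a call needed a Benjamini-Hochberg adjusted p under 0.05 together with a log2 change of 1 or more in size. On this scale C87977 rose by 5.06 ± 0.27 (SE; n = 2 against 2), Oog4 by 5.02 ± 0.33, C87499 by 4.53 ± 0.39, Oog3 by 3.59 ± 0.37, Oog1 by 3.01 ± 0.37 and Oog2 by 2.33 ± 0.27. Pramef12 differed by 0.35 ± 0.11 and was not called. Thus 6 of 7 genes were called higher on day 13, where 5.5% of all genes tested were, and the median change was 3.59 for the 7 genes and -0.24 for all genes. As the 6 are listed at 0 on day 11, no fold is given, and Erh, a gene that every cell uses, is listed at 0 there too. RNA was taken from pools of cells, so fewer cells with a transcript and less of it per cell cannot be told apart.

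**Figure D1:**
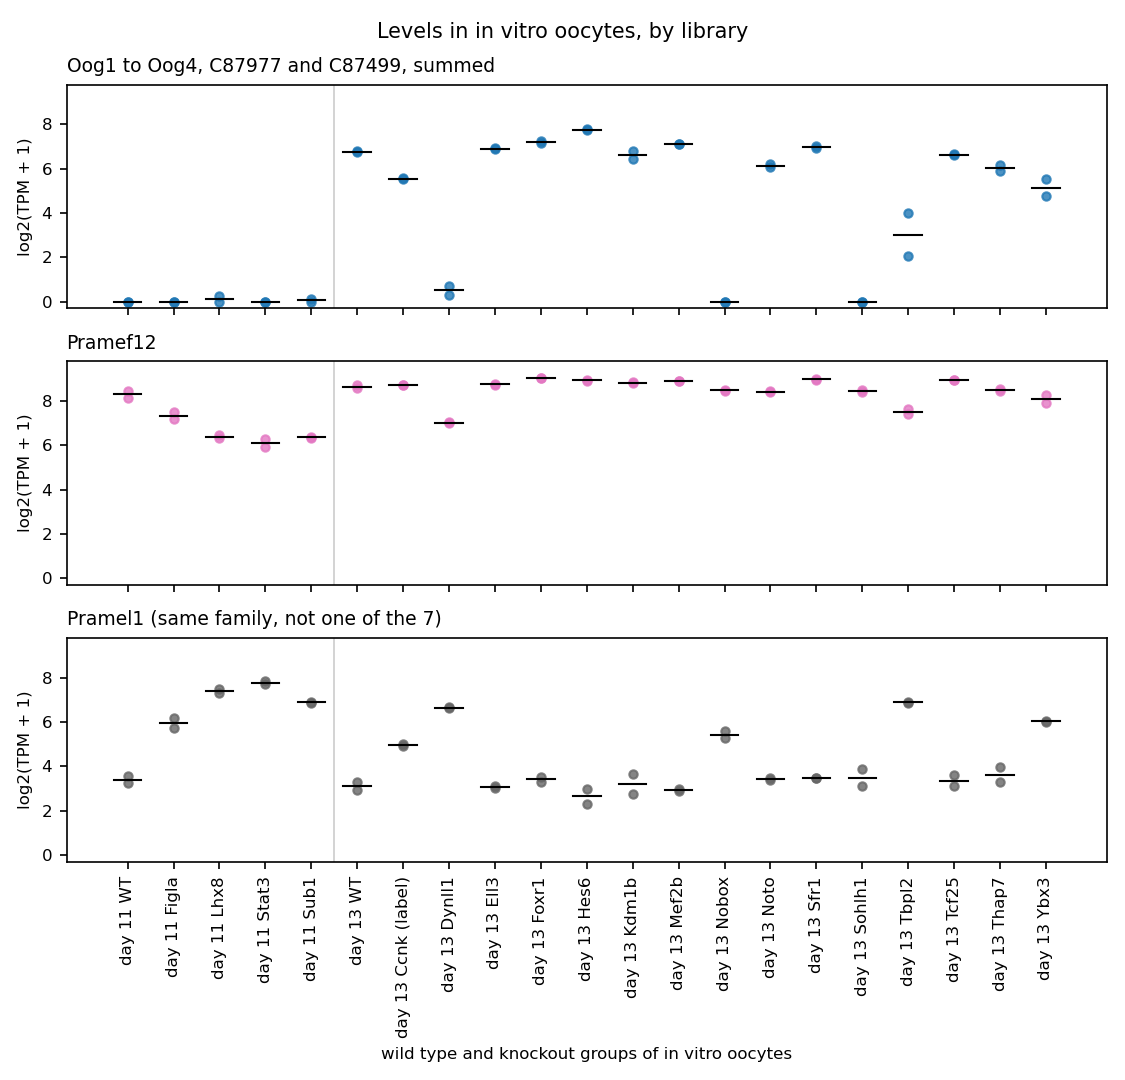
Levels in in vitro oocytes on log2(TPM + 1): each point is a library and each bar the mean of a group of 2, for the summed Oog-type genes, Pramef12 and Pramel1, a family member outside the 7. The summed genes are at or near 0 on day 11 and in the Nobox, Sohlh1 and Dynll1 knockouts of day 13, Pramef12 is never below 60.42 TPM, and Pramel1 is high in several of the knockouts in which the other genes are low.

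In the day 11 knockouts the 6 Oog-type genes stayed at or near 0, as in wild type, with Oog4 at 0.18 TPM in 1 Lhx8 library and at 0.09 TPM in 1 Sub1 library. A lower level could not have been seen there. Pramef12 could fall, and did so in 3 of 4. It stood at 77.22 and 60.42 TPM without Stat3, a signal-activated transcription factor, at 82.65 and 79.49 TPM without Sub1, a transcription coactivator, and at 80.75 and 86.27 TPM without Lhx8, a LIM homeobox factor. All 6 of these libraries lay below both wild-type libraries. The changes were -2.19, -1.95 and -1.91 (SE 0.11 each), and 1 of the 7 genes was called lower in each, against 11.5% of all genes for Stat3, 9.26% for Sub1 and 9.47% for Lhx8. Without Figla, a bHLH factor of early oocytes, Pramef12 stood at 145.63 and 178.49 TPM. That is -0.97 ± 0.11, just short of the limit, so that 0 of 7 were called where 9.52% of all genes were. It passed the limit at -1.23 when TPM was rescaled by the median of ratios, and also without wild-type replicate 2 or Figla replicate 2. Oocyte markers summed to 1917 to 1927 TPM without Lhx8, 2421 to 2488 without Stat3, 2549 to 2586 without Sub1 and 1412 to 1431 without Figla, all below wild type. Macrophage markers reached 1667 to 1685 TPM without Sub1, 311 to 315 without Lhx8 and 304 to 329 without Figla, against 23.9 to 43.7 in wild type, and were at 23.5 to 27.5 TPM without Stat3. Stroma markers were above wild type in all 4, from 147 TPM in a Sub1 library to 393 TPM in a Figla library. Granulosa markers stood at 1258 to 1279 TPM without Lhx8 and between 619 and 864 TPM in the other 3. The part of these in the Pramef12 values was not tested.

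On day 13 the Oog-type genes were at or near 0 in 3 knockouts and low in another. All 6 were listed at 0 in both libraries of the Nobox and of the Sohlh1 knockout, the latter lacking a bHLH factor of early oocytes. In the Dynll1 knockout, which lacks a dynein light chain, they summed to 0.63 and 0.24 TPM. Without Tbpl2, the oocyte relative of the TATA-binding protein, they summed to 3.16 and 15.1 TPM. None of these 8 libraries overlapped the wild type. The highest single value without Tbpl2 was 5.80 TPM, for C87499 in the second library, against 0.81 TPM in the first.

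Pramef12 parted from the other genes in 2 of these 4 knockouts. It remained at 362.48 and 353.56 TPM without Nobox and at 337.51 and 365.65 TPM without Sohlh1, slightly below wild type and not called. Both Dynll1 libraries were lower, at 130.31 and 127.28 TPM, and so were both Tbpl2 libraries, at 198.56 and 169.19 TPM. The changes were -1.64 ± 0.11 for Dynll1 and -1.13 ± 0.11 for Tbpl2.

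The calls were accordingly 6 of 7 lower for Nobox (8.5% of all genes), 6 of 7 for Sohlh1 (13.4%), 7 of 7 for Dynll1 (10.4%) and 7 of 7 for Tbpl2 (6.35%). For Tbpl2 the changes ran from -4.23 ± 0.27 for C87977 and -3.48 ± 0.33 for Oog4 to -2.15 ± 0.27 for Oog2. The median change of the 7 genes was -3.59 for Nobox, Sohlh1 and Dynll1 and -2.28 for Tbpl2, where all genes had 0.52, 0.08, 0.69 and 0.36. Of these 26 calls, those of genes listed at 0 in both knockout libraries were not rechecked one by one under the alternatives. These were all 6 for Nobox, all 6 for Sohlh1 and 3 for Dynll1. The other calls held under each alternative tried. No Sohlh1 call was thus rechecked singly without the library rich in macrophage markers. Oocyte markers were low in the same groups: 3957 to 3972 TPM for Nobox, 1591 to 2332 for Sohlh1 with 3 or 4 of 11 at 0, 2647 to 2681 for Dynll1 and 12413 to 12475 for Tbpl2. Granulosa and stroma markers lay above wild type in all 4. Granulosa markers summed to 597 to 611 TPM for Nobox, 142 to 191 for Sohlh1, 285 to 319 for Dynll1 and 729 to 825 for Tbpl2, against 25.3 to 28.1 in wild type. Stroma markers summed to 144 to 155 TPM for Nobox, 203 and 2074 for Sohlh1, 91.1 to 93.2 for Dynll1 and 295 to 297 for Tbpl2, against 10.7 to 17.5. The Dynll1 libraries also had macrophage markers at 190 to 191 TPM (68.9 to 86.0 in wild type) and pluripotency markers (4 of 8 in the table) at 207 to 213 TPM (28.0 to 29.7 in wild type). The part of these markers in the values was not tested.

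Counting may differ between libraries for genes with copies. Hmgn2, which has many copies, had a mean of 289 TPM without Figla and 215 TPM without Sohlh1, and of 5.33 to 17.3 TPM in the other 19 in vitro groups. Erh had 45.1 and 63.1 TPM, and 0 to 8.77 TPM in the others. Both genes were chosen after their values were seen. The 592 genes tested with a share of common stretches of 20% or more had a median change 0.32 above that of the 10483 with under 5% in the Sohlh1 knockout, and 0.29 above in the Figla knockout. Over the other 17 knockouts this difference ran from -0.29 to 0.03. What this means for the levels of the 7 genes was not tested.

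A second tier of groups held the Oog-type genes at intermediate levels. Without Ybx3, a Y-box nucleic acid binding protein, they summed to 26.2 and 45.5 TPM, and C87977 was at 5.02 and 2.55 TPM, Oog3 at 2.25 and 1.47 TPM and Oog4 at 7.66 and 26.1 TPM. In the libraries labelled Ccnk knockout they summed to 46.6 and 45.1 TPM, with C87977 at 8.5 and 10.12 TPM. In both groups the sums lay below the wild type. Ybx3 had 5 of 7 called lower (2.21% of all genes): C87977 by -2.85, Oog3 by -2.08, Oog1 by -1.59, C87499 by -1.33 and Oog4 by -1.09. The libraries labelled Ccnk had 4 of 7 (0.91%): C87977 by -1.70, C87499 by -1.38, Oog1 by -1.11 and Oog4 by -1.04. Only 2 of the 5 Ybx3 calls and 1 of the 4 Ccnk calls held under every alternative. Leaving out Ybx3 replicate 1 left 3 calls. Without Ccnk replicate 1 only the call of C87977 was left, and those of Oog1 and Oog4 were lost without any of the 4 libraries. Oocyte markers summed to 34105 to 34662 TPM for Ybx3 and 41975 to 42872 for Ccnk, below the 60042 to 61470 TPM of wild type. Granulosa markers summed to 1134 to 1168 TPM for Ybx3 and 141 to 146 for Ccnk, against 25.3 to 28.1 in wild type. Stroma markers summed to 161 to 171 and 78.8 to 85.9 TPM, and macrophage markers to 194 to 203 TPM for Ybx3. Their part was not tested.

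In the remaining groups single genes passed. C87977 and Oog1 were called lower for Noto (2 of 7, 0.195% of all genes), Oog1 for Tcf25 (1 of 7, 0.138%), C87977 for Thap7 (1 of 7, 0.341%), and C87977 for Kdm1b (1 of 7, 0.154%), a histone demethylase of growing oocytes. Without Kdm1b C87977 stood at 12.9 and 18.46 TPM while Oog4 and C87499 overlapped the wild type. Each of these 5 calls was lost without wild-type replicate 1 and also without wild-type replicate 2. For Ell3 (0.0163% of all genes lower), Foxr1 (0.0325%), Mef2b (0.0569%) and Sfr1 (0.0569%) 0 of 7 were called lower. In the Hes6 knockout 0 of 7 were called lower (0.065%) and 2 of 7 higher (0.528%). Hes6 is a member of the Hes family of bHLH factors. Oog3 stood there at 41.56 and 38.69 TPM (1.77 ± 0.37) and C87977 at 75.61 and 71.71 TPM (1.17 ± 0.27), and the 6 summed to 218 and 212 TPM, the highest of all in vitro groups. Both calls were lost without wild-type replicate 1 and without either Hes6 library, though all 4 of these values lay above the wild type. Pramef12 was not called in any of the 11 day 13 groups of this and the preceding paragraph, where it ranged from 238.39 to 527.98 TPM. In the 9 groups described here granulosa markers summed to between 35.6 TPM (Ell3) and 269.5 TPM (Kdm1b), above wild type in each, and their part was not tested.

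**Figure D2:**
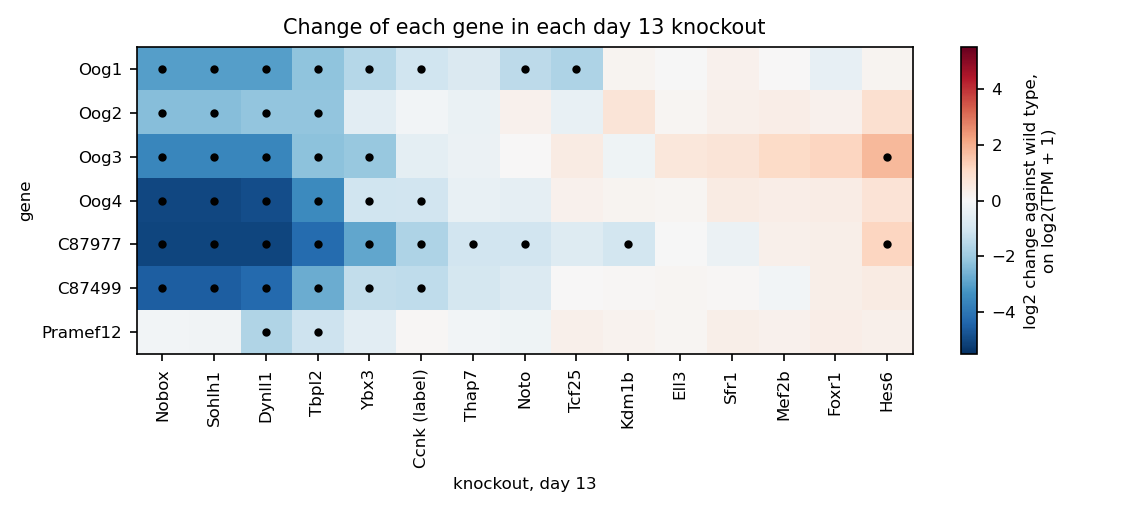
Change of each gene in each day 13 knockout against wild type, as log2 change of TPM + 1 by colour, with a dot where the change was called. Blue fills the first 4 columns for the Oog-type genes, Pramef12 has dots only for Dynll1 and Tbpl2, and the only dots on red are those of Oog3 and C87977 for Hes6.

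Over the 21 in vitro group means on log2(TPM + 1), pairs of the 6 had Pearson r of 0.934 to 0.996, and pairs with Pramef12 0.732 to 0.764. The groups share libraries of one fit and near-identical sequence, so these values only describe the pattern. The genes outside the family whose group means were most like the mean of the 7 among 6894 were Umodl1 (r = 0.986), Oosp3 (0.986), Haus4 (0.980), AA619741 (0.979) and Sp110 (0.978). Ranked by Spearman's rank correlation, 0 of these 5 stayed among the first 5. Of the measured neighbours outside the family, Snw1, the nearest to Oog1 at 130.4 kb, stood at 148 TPM on day 11, 102 TPM on day 13 and 144 TPM without Nobox. Lrrc38 and 1700012P22Rik, which flank the chromosome 4 cluster, stayed under 1 TPM in every group. Ifna12, 23.9 kb from C87499, was listed at 0 in day 11 wild type, at 3.43 TPM in day 13 wild type and at 0 without Nobox. Ifna13, nearer to C87499 on its other side at 9.2 kb, had no group mean above 0.095 TPM.

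Another 18 genes of the family are in the table, and 4 of them stayed under 1 TPM in every library. Of the 5 tested in vitro, with adjusted p over all genes, none was called between the 2 wild-type days. Pramel1, a member known from the testis, was called higher in 9 of the 19 knockouts. Of all genes 12.4% (Lhx8) to 18.6% (Figla) were called higher in those of day 11. On day 13 the shares were 37.7% for Dynll1, 30% for Nobox, 22.8% for Tbpl2, 15.7% for Ybx3 and 5.23% for Ccnk. Pramel1 stood at 10.68 and 8.44 TPM in wild type of day 11. It was at 206.71 and 228.96 TPM without Stat3, 157.05 and 179.29 TPM without Lhx8, 116.79 and 117.35 TPM without Sub1, and 71.08 and 52.24 TPM without Figla. It rose by 4.38 ± 0.27 (limma, adjusted p = 4.517e-13), 4.01 (3.959e-12), 3.49 (8.754e-11) and 2.56 (1.823e-08), each on the log2 scale. On day 13, from 8.79 and 6.66 TPM in wild type, it rose to a mean of 118 TPM without Tbpl2 (3.78, adjusted p = 1.432e-11), 99.6 TPM without Dynll1 (3.54, 1.687e-11), 64.2 TPM without Ybx3 (2.91, 3.81e-09), 42.2 TPM without Nobox (2.31, 5.903e-08) and 30.2 TPM in the libraries labelled Ccnk (1.85, 2.85e-05). In the Sohlh1 knockout, where the 6 are at 0, Pramel1 stood at 7.55 and 13.64 TPM and was not called. Pramef8 had group means of 14.99 to 38.3 TPM across the knockouts and was never called. C87414 fell from 1.09 TPM in day 13 wild type to 0 in the Dynll1 (adjusted p = 0.02754), Nobox (0.03137) and Sohlh1 (0.03346) knockouts. These 3 were the only lower calls of other family genes, and 0 were left without either day 13 wild-type library. The remaining higher call was of B020004J07Rik for Sohlh1, whose libraries overlapped the wild type. This gene was named after its values were seen. The share of stretches of 50 bases that also occur in another gene was high for several other family genes. It was 77.2% for D5Ertd577e, 63.5% for Pramef25, 58.5% for C87414, 55.3% for BC080695 and 45.0% for AA792892, so their levels are uncertain too. It was 0 for Pramel1 and Pramef8 and 2.97% for B020031M17Rik.

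In DIOLs.S the Oog-type genes came up early, dipped and then climbed. They summed to 0.48 and 1.64 TPM on day 1, 51.1 and 50.4 TPM on day 3, and 38.7 and 22.8 TPM on day 5. The sums were 108 and 105 TPM on day 7 and 836.5 and 928 TPM on day 14, 17.4 times the day 3 mean. Of these sums only the day 3 to 5 step went down, and no library overlapped one of another day. Single genes differed in that step. The means of C87977, Oog4, Oog1 and C87499 fell. Those of Oog3 (10.3 to 15.1 TPM) and Oog2 (0.815 to 2.18 TPM) rose. C87499 fell further to a mean of 1.24 TPM on day 7. From day 1 to 3, 5 of 7 genes were called higher (11.9% of all genes): C87977 by 3.76 (18.31 and 25.15 TPM on day 3), Oog3 by 3.47 (12.46 and 8.16 TPM), Oog4 by 3.30, Oog1 by 2.39 and C87499 by 1.96. Oog2 stayed at or below 1.25 TPM and was not called. On day 5 none was called higher (3.81%), and 2 of 7 were lower (4.14%). These were C87977, by -2.20 (4.15 and 3.63 TPM on day 5), and Oog4, by -1.20, and without day 5 replicate 2 only 1 was called. From day 5 to 7, 5 of 7 were higher (2.96%; C87977 by 2.02 and Oog3 by 1.89) and none lower (5.09%). The calls of Oog1 and Oog2 in this step were lost without day 5 replicate 2 and without day 7 replicate 1, respectively. C87499 was at 1.13 and 1.35 TPM on day 7, below Oog2. The first library of day 7 held granulosa markers at 1990 TPM and the second at 442 TPM, beside summed Oog levels of 108 and 105 TPM. Stroma markers summed to 185 to 303 TPM on day 1 and to 124 to 153 TPM on day 3. Pluripotency markers summed to 257 to 259 TPM on day 1 and to 72.9 to 85.1 TPM on day 3. The part of these markers was not tested. From day 7 to 14, 7 of 7 were higher (7.78%), led by C87499 (4.61), C87977 (4.09) and Oog4 (3.14), and none lower (32.8%). Of these 7, 5 were left without day 7 replicate 1. Pramef12 was already at 223.35 and 261.85 TPM on day 1 and reached 704.76 and 750.71 TPM on day 14 (1.04 against day 7).

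In the series labelled DIOLs the sum rose at every step. This series was first taken on day 5, so the interval of the DIOLs.S dip, day 3 to 5, was not sampled in it. The 6 summed to 41.8 and 38.8 TPM on day 5, 155 and 146 TPM on day 10, 278 and 265 TPM on day 15, and 1360 and 1467 TPM on day 25, a 35.1-fold rise from day 5 in the mean. The order of the days was the same in every library. Day 10 had 5 of 7 called higher against day 5 (3.92%) and none lower (19.2%): C87977 by 3.67, C87499 by 2.63, Oog4 by 1.95, Oog1 by 1.68 and Oog3 by 1.46. Day 15 had 2 of 7 (1.12%; Oog4 by 1.6 and Oog2 by 1.06), and day 25 had 6 of 7 (4.38%). In the last step C87499 rose by 3.37, Oog4 by 3.14, C87977 by 2.68, Oog2 by 2.32, Oog1 by 1.86 and Oog3 by 1.57. Pramef12 stood at 409.6 and 418.78 TPM on day 5 and at 743.88 and 698.1 TPM on day 25, and was called in no step. Oocyte markers summed to 11028 to 11147 TPM on day 5 and to 61060 to 61236 TPM on day 25, close to day 13 wild type. Granulosa markers were at 24.6 to 25.7 TPM on day 5 and at 0.8 to 6.86 TPM from day 10 on, with 4 and 5 of 9 at 0 on day 25. Stroma markers summed to 307 to 314 TPM on day 5 and to 5.45 to 8.56 TPM on day 10. Macrophage markers summed to 47.5 to 47.7 TPM on day 15 and to 160 to 163 TPM on day 25. The part of these markers in the climb was not tested. The make-up differed from the in vitro oocytes: Oog3 led in DIOLs of days 5 to 15, with 136.65 and 130.55 TPM on day 15.

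**Figure D3:**
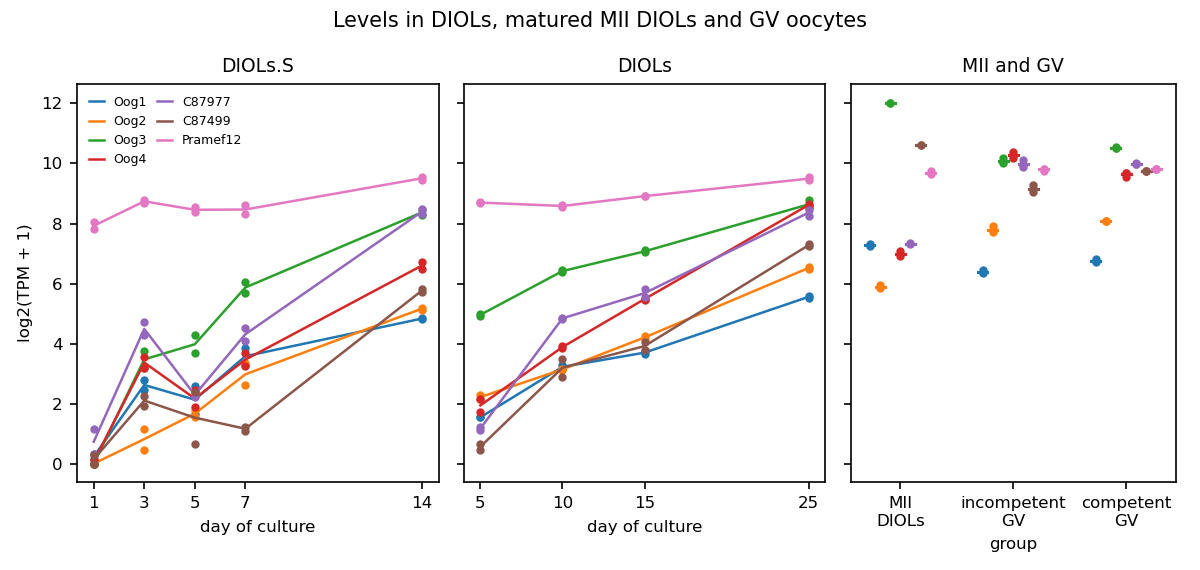
Levels of the 7 genes on log2(TPM + 1) by day of culture in DIOLs.S and DIOLs, and in matured MII DIOLs and GV oocytes; points are libraries and lines or bars their means. Pramef12 stays high throughout, the other genes climb, and in MII DIOLs Oog1, Oog3 and C87499 stand above while Oog2, Oog4 and C87977 stand below their GV levels.

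GV oocytes of the animal held the Oog-type genes at a higher level than any DIOL before maturation. In incompetent GV oocytes the 6 summed to 3953, 4169 and 4523 TPM, and in competent ones to 4571, 4445 and 4556 TPM. The sums of the 2 GV groups overlapped, with a fold of 1.07. Against day 13 wild type the incompetent mean was 38.8 times as high. Against incompetent GV oocytes, DIOLs of day 25 had 5 of 7 genes called lower (13.5% of all genes), C87499 by -1.88, Oog4 by -1.66, C87977 by -1.62, Oog3 by -1.44 and Oog2 by -1.28. The summed level was 2.98 times higher in the GV oocytes. DIOLs.S of day 14 had 6 of 7 lower (20.2%), from Oog4 (-3.67) and C87499 (-3.38) to Oog1 (-1.56), and 4.78 times less in sum. Pramef12 was below all incompetent GV libraries in both (-0.30 ± 0.08 and -0.29 ± 0.08) and was not called.

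DIOL and GV libraries also differed for genes with copies. Hmgn2 had group means of 115 to 735 TPM in DIOLs other than the matured ones and of 3.2 and 4.79 TPM in the GV groups, and Erh of 21.9 to 58.9 TPM and of 5.4 and 4.07 TPM. In MII DIOLs they stood at 15.6 and 41.1 TPM. Against incompetent GV oocytes the median change of genes with a shared stretch of 20% or more lay 0.28 above that of genes with under 5% in DIOLs of day 25, and 0.18 above it in DIOLs.S of day 14. The part of counting in the lower Oog levels of DIOLs was not tested.

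Between competent and incompetent GV oocytes no gene of the 7 was called, where 2.54% of all genes were higher and 7.42% lower. Every competent library lay above every incompetent one for Oog1, Oog2, Oog3 and C87499, and below for Oog4. The share of all genes without overlap was not computed, so this only describes the levels. Oog1 had means of 83.1 TPM in incompetent and 108 TPM in competent oocytes, and Oog2 of 222 and 272 TPM. Oog4 stood at 1154.12, 1243.28 and 1334.09 TPM in incompetent and 822.71, 756.5 and 817.55 TPM in competent oocytes (-0.64 ± 0.14). Oog3 stood at 1037.14, 1059.61 and 1148.32 TPM and at 1469.92, 1448.28 and 1492.58 TPM (0.44 ± 0.13). C87499 stood at 529.03, 569.05 and 616.26 TPM and at 849.81, 858.23 and 860.67 TPM (0.59 ± 0.26). Oog3 and C87499 were thus higher and Oog4 lower in every competent library, all by less than the limit of 1.

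In matured MII DIOLs Oog3 and C87499 were far higher in TPM than in the DIOLs of day 25. These are levels of polyA RNA, and RNA without a polyA tail was not measured. Oog3 stood at 4179.48 and 4166.69 TPM, 10.5 times its mean on day 25 of DIOLs, where it was at 363.6 and 435.07 TPM, and was the ninth most abundant of 15140 genes. C87499 stood at 1576.01 and 1562.95 TPM, against 152.13 and 157.41 TPM on day 25. Oog1 stood at 151.29 and 159.22 TPM, against 45.19 and 47.1 TPM. These 3 of 7 were called higher (19.8% of all genes), by 3.39 ± 0.16, 3.33 ± 0.32 and 1.73 ± 0.21. Oog4, at 134.04 and 118.7 TPM against 399.72 and 386.44 TPM, and C87977, at 161.57 and 158.04 TPM against 306.84 and 352.32 TPM, were the 2 of 7 called lower (37.8%), by -1.63 ± 0.18 and -1.04 ± 0.19. These 2 calls depended on the scaling: with TPM rescaled by the median of ratios, which moved the changes of all genes up by a median of 0.84, the changes were -0.66 and -0.06, and C87977 was also lost without day 25 replicate 2. Pramef12, at 809.8 and 849.91 TPM against 743.88 and 698.1 TPM (0.20 ± 0.09), was not called, but passed the limit at 1.18 with the rescaling. In sum the 6 stood at 6263 and 6222 TPM, the highest level of any group.

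Against competent GV oocytes MII DIOLs had 1 of 7 called higher (18.3% of all genes), Oog3 by 1.50 ± 0.15, and 3 of 7 lower (31.9%), C87977 by -2.66, Oog4 by -2.65 and Oog2 by -2.20. With the rescaling Oog1 (1.40) and C87499 (1.76) were called higher as well. Oog2 stood at 60.59 and 56.1 TPM in MII DIOLs and between 270.26 and 273.35 TPM in competent GV oocytes. The sum of the 6 was 1.38 times higher in MII DIOLs. Oog3 made up 66.9% of the sum in MII DIOLs, 28.2% in DIOLs of day 25, 32.5% in competent GV oocytes and 10.2% in day 13 wild type. C87977 made up 2.56%, 23.3%, 22.5% and 29.7% of it. The 2 most alike genes, Oog1 and C87977, thus moved apart, the first higher and the second lower than on day 25, and how reads were divided between them was not tested. Oocyte markers summed to 21046 to 21609 TPM in MII DIOLs, below DIOLs of day 25 and competent GV oocytes (29917 to 31546), and granulosa markers to 229 and 594 TPM. The part of these in the changes was not tested.

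**Figure D4:**
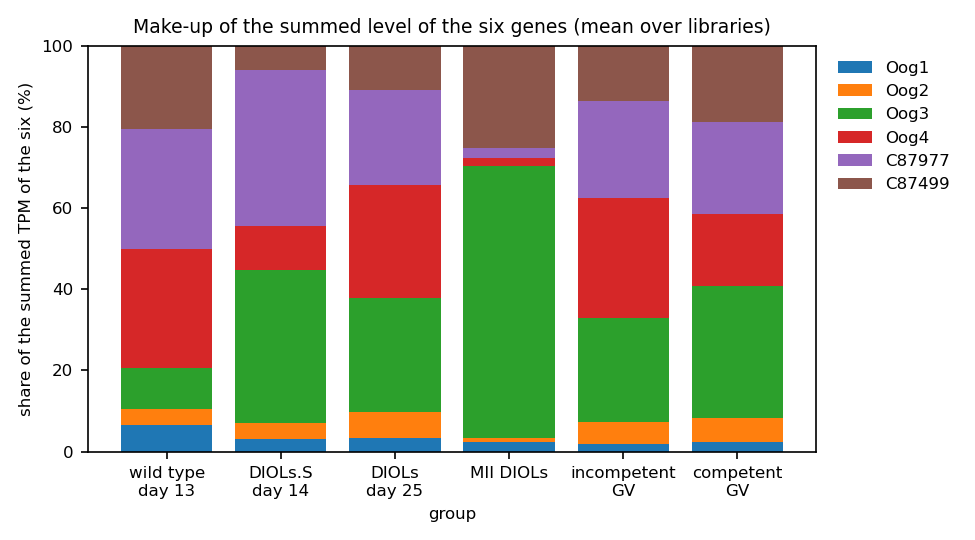
Share of each Oog-type gene in the summed TPM of the 6, as a mean over libraries, in 6 groups. Oog3 fills 66.9% of the bar in matured MII DIOLs, where C87977 takes 2.56%, while day 13 wild type has C87977 and Oog4 as its largest parts.

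Across the 12 DIOL and GV groups, pairs of the 6 had Pearson r of 0.869 to 0.977 over group means, and pairs with Pramef12 0.926 to 0.948, as a description of libraries of one fit. Among 6732 genes outside the family, those most like the mean of the 7 were Pak7 (0.990), Klf17 (0.986), Tor1a (0.981), Mos (0.979), the kinase that holds oocytes in metaphase II, and Dtx2 (0.977). By Spearman's rank correlation 1 of these 5 stayed among the first 5.

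Several other family genes came up early in the same cultures and fell again. From day 1 to 3 of DIOLs.S, 9 of 13 tested were called higher (11.9% of all genes), with no lower call (9%). A gene could enter this fit through the very days on which it was high. Several of these genes share sequence, BC080695 and Pramef25 among them, so their calls may not be separate. The counts and p-values therefore only describe the levels. B020031M17Rik rose from 0.815 to 38.3 TPM in the mean (log2 change 4.46 ± 0.61, limma, adjusted p = 5.012e-06), BC080695 from 1.57 to 28.9 TPM (3.71 ± 0.50, 3.793e-06) and Pramef25 from 2.12 to 29.0 TPM (3.34 ± 0.44, 3.438e-06). Their levels on day 5 overlapped those of day 3. From day 5 to 7 B020031M17Rik dropped from 30.4 to 2.18 TPM (-3.51, adjusted p = 0.0002844), BC080695 from 23.7 to 2.67 TPM (-2.97, 0.0001957) and Pramef25 from 31.1 to 3.23 TPM (-2.94, 6.799e-05). In all, 6 of 13 were lower (5.09% of all genes) and 1 higher (2.96%) in that step. A further 5 of 13 were lower from day 7 to 14, near the 32.8% of all genes, and 6 of 13 from day 5 to 10 in DIOLs (19.2%). B020031M17Rik was listed at 0 in DIOLs of day 25, and Pramef25 too. Pramel1 peaked at 53.8 TPM on day 5 of DIOLs.S and fell to 1.85 TPM on day 14 (-3.05 against day 7, adjusted p = 6.405e-09). In GV oocytes it was at 1.39 TPM when incompetent and 0.15 TPM when competent (-1.04, 0.0006501).

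Among the other family genes named, C87414 rose in MII DIOLs, though the sequence it shares with other genes leaves its level uncertain. It stood at 37.1 and 28.87 TPM in DIOLs of day 25 and at 164.49 and 665.57 TPM in MII DIOLs, whose libraries lay far apart (3.30 ± 0.38, limma, adjusted p = 9.985e-08), 2.45 ± 0.35 above competent GV oocytes (2.109e-06). It also rose from 29.1 to 60.1 TPM between incompetent and competent GV oocytes (1.02 ± 0.31, 0.01185). D5Ertd577e was lower in MII DIOLs, at 14.3 TPM against 39.4 TPM in competent GV oocytes (-1.49 ± 0.25, 1.745e-05). AA792892 rose from 7.73 TPM in incompetent to 17.6 TPM in competent GV oocytes (1.09 ± 0.36, 0.01958). Over the 7 steps of the 2 DIOL series the 13 other family genes tested had 13 higher and 20 lower calls in all, where a step had 1.12 to 11.9% of all genes called higher and 2.52 to 32.8% lower.

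**Figure D5:**
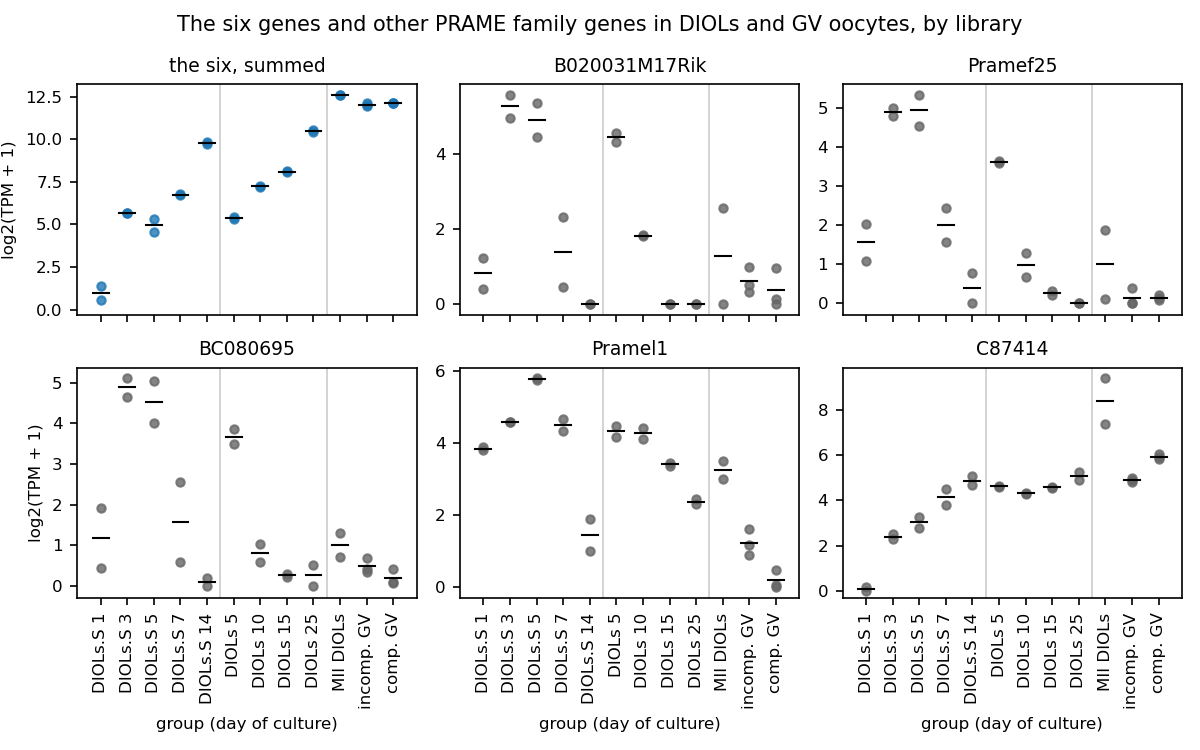
Levels on log2(TPM + 1) of the 6 Oog-type genes in sum and of 5 other family genes, in DIOLs.S, DIOLs, MII DIOLs and GV oocytes; points are libraries and bars their means, and each panel has its own scale. B020031M17Rik, Pramef25 and BC080695 peak on days 3 to 5 and are low where the summed genes are highest, and C87414 is highest in MII DIOLs.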

How the data were processed

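The authors deposited 1 table of TPM values, with a value per gene symbol and library. Per the submitters' processing notes, STAR 2.6.0, featureCounts 1.6.0 and the build mm10 were used. How reads that fit several copies were counted is not given in the sources used here. TPM keeps no depth, so no precision from counting is given. Of 15163 lines the incomplete last and 22 with date-like names were dropped. A further 80 columns match no sample by name and were not used, and 3 samples of primordial follicle oocytes were not analysed here.

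A gene entered a fit if 2 or more of its libraries had 1 TPM or more, and was tested on log2(TPM + 1), with no covariates, by limma 3.58.1 (trend and robust options) in R 4.3.3: 42 in vitro libraries (12306 genes, 21 residual degrees of freedom), and 26 DIOL and GV libraries (11603 genes, 14 residual degrees of freedom). P-values were adjusted by Benjamini-Hochberg within a comparison. The members, gene lists and tests were chosen with earlier results of these data known. Named in the text are the 7 members, the 8 other family genes with the highest mean TPM, the 5 genes most like the members in each fit with a mean TPM of at least 10, and the nearest measured neighbours. B020004J07Rik, Hmgn2 and Erh fall outside this rule. Identity and shared sequence were computed from GENCODE M21 with Biopython 1.88, and promoter windows came from RefSeq. Alternatives were a pseudocount of 0.1, no filter, median-of-ratios rescaling, the replicate number as a block, 1 fit over all libraries, and leaving out each library in turn. The steps were tested on simulated data.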

Additional observations from a re-analysis of the deposited data

How the results depend on the processing

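For the 7 genes and for calls of other family genes 228 changes were recomputed. None that was called in the main or the alternative setting changed direction between them. Changes called in neither were not checked for direction. A pseudocount of 0.1 took 22 calls away and added 2, rescaling by the median of ratios took 7 and added 6, 1 fit over all libraries took 1 and added 2, and the filter changed none. The members had 43 lower calls in knockouts, 34 to 44 under other settings and 35 to 44 with each library left out. They had 30 higher calls between DIOL stages (30 to 33, and 27 to 31), 20 in the GV and MII comparisons (20 or 21, and 19 or 20), and 6 on day 13 in each setting. Held under all settings were 32 of the 43, 26 of the 30 and 18 of the 20. Calls of genes at 0 in all libraries of a group were not recomputed singly and are counted here as held. Other family genes had 3 lower calls in knockouts, which ranged from 0 (without either day 13 wild-type library) to 6 (without day 11 wild-type replicate 1), and 33 calls between DIOL stages, 28 to 36 with a library left out. The replicate numbers do not pair the libraries. For this, the differences of replicate 1 minus replicate 2 over all genes tested were correlated between groups. The correlation ran from -0.032 to 0.062 over 210 pairs of in vitro groups, and from -0.150 to 0.277 over 66 pairs of the other groups. With the replicate number as a block the members kept 43 lower calls in knockouts, and other family genes had 31 calls between DIOL stages. With stretches of 100 bases 1 of the 7 genes shared at least 20% of its sequence, in place of 3. Rescaling moved the changes of all genes by a median of over 0.1 in size in 22 of 32 comparisons, and this median ran from -0.59 to 0.84. Where leaving out 1 library left a lone library in a group, it was assumed to vary like the other groups.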
